A study of Mus musculus with 6 samples.

Results

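The comparison described here sets mouse neural stem and progenitor cell cultures given PQ against control cultures, across all measured genes other than those of the cell cycle, p53, NRF2, ATF4 and interferon programmes. The libraries were chosen by their titles, which name 2 as PQ and 2 as control, so that 4 of the 6 libraries of the series enter it. The other 2 libraries carry the label NAC. They served only in the filter on low counts, the scaling and the estimate of the spread between libraries. Every culture grew in N2 medium to which EGF and bFGF had been added. Exposure lasted 48 h, and the labels give neither a dose nor the full name of the agent, nor say what the control cultures received. The labels name no genotype, strain, age or sex for the cells and no passage number. Whether both libraries of a group were made from independent cultures is not stated, so a p-value here reflects variation among libraries that could be technical only.

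Neural stem cells line the germinal zones of the developing and adult brain, where they renew themselves and give rise to neurons, astrocytes and oligodendrocytes. In culture they are held in division by EGF and bFGF acting through receptor tyrosine kinases, and transcription factors such as SOX2 and NR2E1 (also called TLX) keep them in the progenitor state. They also build their own surroundings, by secreting growth factors, cytokines and matrix proteins, and their rapid growth draws on ribosomes, nucleotide synthesis and transport between nucleus and cytoplasm.

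Summed expected counts were 9680436 to 10388731 per library in the 4 libraries, and 12813 genes passed the filter on low counts. At an adjusted p under 0.05 in edgeR's quasi-likelihood test, 2289 genes were called, which is 17.9% of those tested. Of these 1162 were higher with PQ (9.07%) and 1127 lower (8.8%). These shares are the background against which each list below is read. The 2 libraries of one group did not overlap those of the other for 57.2% of all genes tested, 29.0% with PQ higher and 28.2% with PQ lower, and where groups are said below not to overlap, those shares are the background. The numbers fell when a library was left out, to 1477 calls without PQ replicate 1 and 829 without PQ replicate 2. Neural stem cell markers were abundant in each library: Fabp7, a fatty acid-binding protein of radial glia, stood at 741 and 800 FPKM (fragments per kilobase of gene, scaled to library depth) in control and 775 and 816 in PQ, Sox2 at 141 and 164 in control and 121 and 122 in PQ, and the intermediate filament gene Nes at 91.9 and 87.7 in control and 114 and 117 in PQ. Hes5 and Prom1, which are often used as markers too, were at or near 0, with at most 2 and 4 expected counts in a library.

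The 5 programmes left aside held 546 tested genes, of which 394 passed (72.2%). Outside them 1895 of 12267 genes passed (15.4%), 1009 higher and 886 lower. Most of these changes were small: 558 of the higher and 612 of the lower genes changed by less than 1.5-fold, and 147 and 60 by at least 2-fold. Among the lists with the highest shares of rising members were collagens, lysosomal proteins, sterol synthesis enzymes, ion pumps with the proton pump of the lysosome, cytokine receptors and secreted factors. Among those with the highest shares of falling members were nuclear pore and transport proteins, enzymes of nucleotide and polyamine synthesis, cytosolic ribosomal proteins and chromatin regulators. The median log2 fold change over all genes tested was -0.002. The share of 17.9% over all genes tested includes the 5 programmes, so lists between 15.4% and 17.9% lie above the share outside them.

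**Figure D1:**
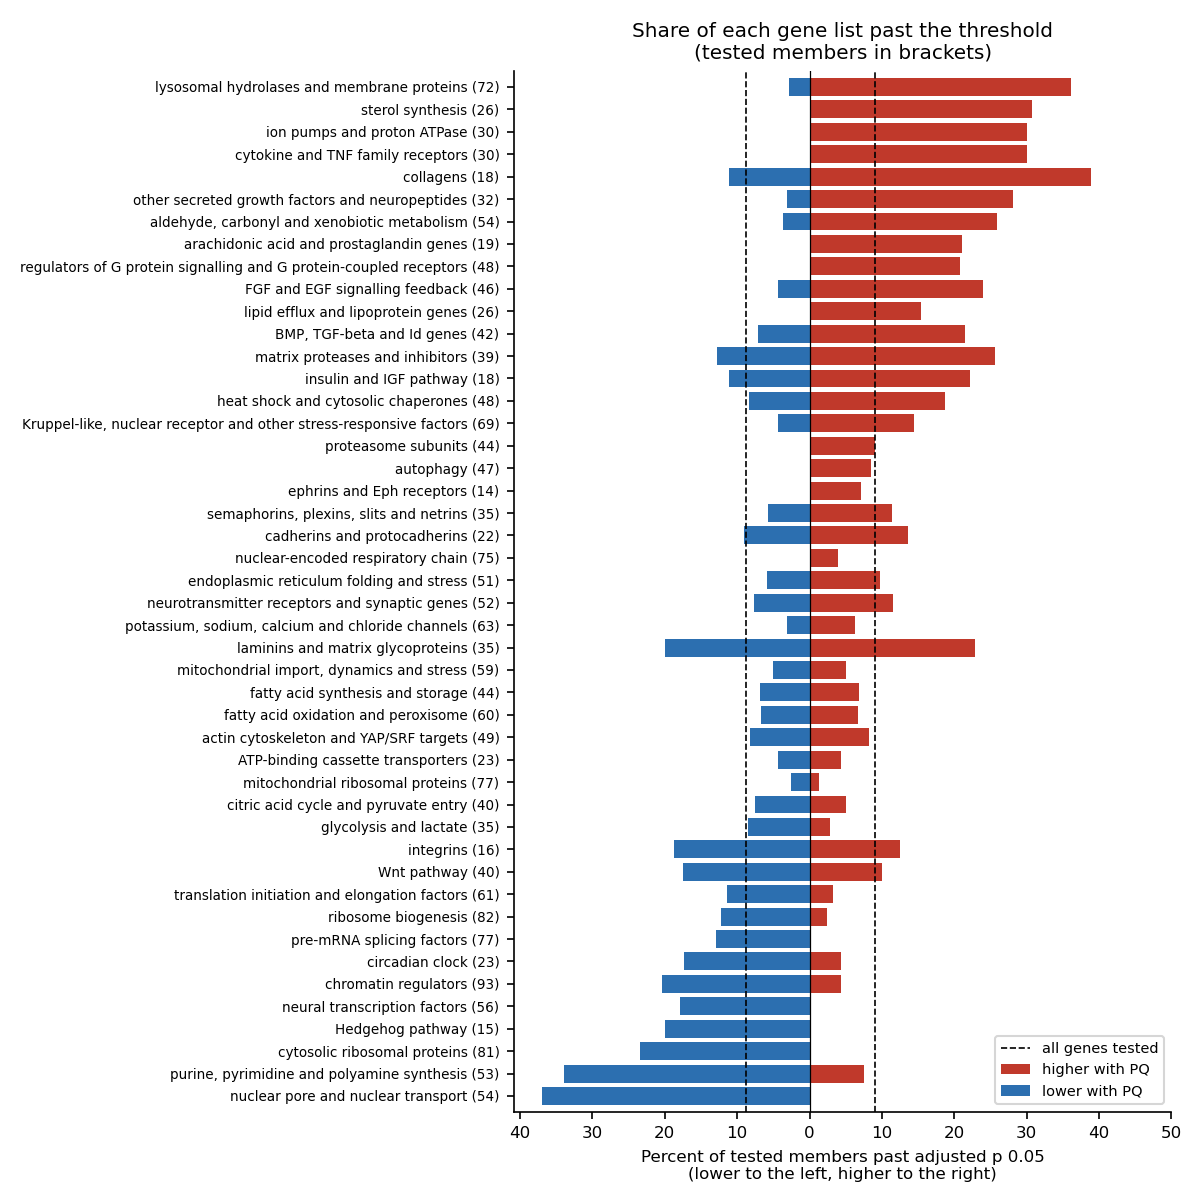
Percent of the tested members of each of 46 gene lists that passed an adjusted p of 0.05, higher with PQ to the right in red and lower to the left in blue; dashed lines give the same shares over all genes tested (9.07% and 8.8%). Lists are ordered by the share higher minus the share lower, with lysosomal genes, sterol synthesis and ion pumps at the top and nucleotide synthesis and nuclear transport at the bottom.

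Because so many calls depended on a single library, the model was refitted without each of the 4 control and PQ libraries in turn. A call is said to hold where the gene stayed past an adjusted p of 0.05 in all 4 of those fits. Of 271 genes set for naming by rule, 128 held in this sense, and their estimates had the same sign in each fit. Counts of list members depended on single libraries too: of 108 such counts (54 lists, 2 directions) 35, 39, 53 and 75 moved by over 1.5 times when control replicate 1, control replicate 2, PQ replicate 1 or PQ replicate 2 was omitted. Genes given below as changed, with their values, held unless the text says otherwise. Expression is given in CPM, the count of a gene as a share of the TMM-adjusted library total, for control replicates 1 and 2 and then PQ replicates 1 and 2, and changes are log2 fold changes of PQ against control with their standard errors.

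The genes named next are those that rose most outside the 5 programmes among genes with a mean of at least 5 CPM over the 4 libraries. Rarer genes with larger estimates, such as Acta2, are left out of this ranking. Acta2 was at 0.101 and 0.312 CPM in control and 1.04 and 2.00 with PQ, and its call did not hold. Ass1, which encodes the argininosuccinate synthase of arginine synthesis, went from 1.72 and 1.56 to 7.70 and 9.03 CPM (log2 fold change 2.35 ± 0.29, adjusted p = 2.8e-05). Thbs2, a matrix glycoprotein of the thrombospondin family, went from 1.92 and 3.43 to 8.43 and 10.2 CPM (1.80 ± 0.28). Pik3r5, a regulatory subunit of phosphoinositide 3-kinase gamma, rose from 5.26 and 4.36 to 14.1 and 18.3 CPM (1.75 ± 0.22). Both PQ libraries lay above both control libraries for each of the 3 genes, as the ranking rule required. Aldh1a3, an enzyme that makes retinoic acid from retinaldehyde, reached a higher level, with 15.1 and 11.0 CPM in control and 36.7 and 38.2 with PQ (1.52 ± 0.16, adjusted p = 4.8e-06). Serpina3n, a secreted inhibitor of serine proteases, was at 6.87 and 6.86 in control and 19.5 and 18.3 with PQ (1.46 ± 0.17). Ano3, a membrane protein of the anoctamin family, rose from 10.7 and 13.7 to 34.7 and 30.7 CPM (1.42 ± 0.16). For these genes the libraries of a group were close to each other relative to the gap between groups. Gadd45b, a stress-induced regulator of growth arrest and DNA demethylation, rose by 1.51 ± 0.19, and the activin subunit gene Inhba by 1.45 ± 0.24. Eva1c, Gcnt2, C1qtnf1, Ppfibp2 and Pla2g7 completed the rising genes that held, with log2 fold changes of 1.36 to 1.49. The 2 control libraries differed for Pla2g7, a phospholipase that degrades platelet-activating factor, at 2.02 and 4.47 CPM against 8.53 and 9.69 with PQ. C1qtnf1 shares 20.5% of its exonic bases with a gene on the other strand, whose log2 fold change was 0.56.

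**Figure D2:**
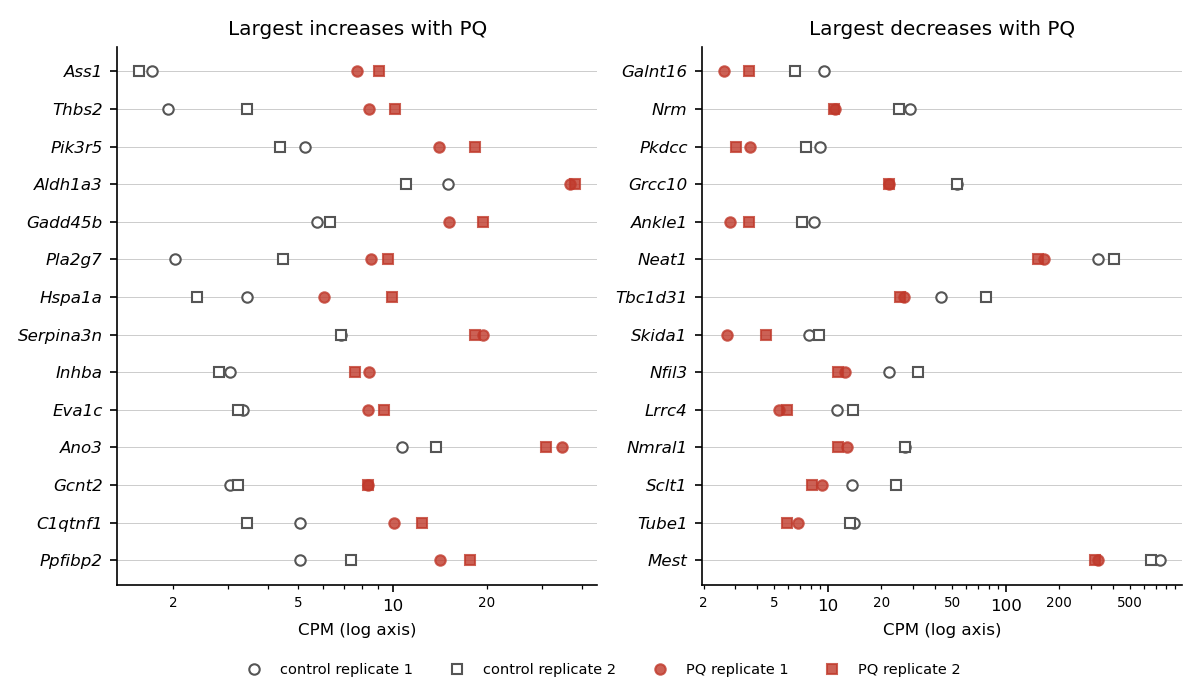
CPM in each library (log axis) for the called genes outside the 5 programmes that changed most, 14 that rose and 14 that fell, with Fam177a left out because its counts are uncertain; open symbols are control and filled symbols PQ, circles replicate 1 and squares replicate 2. The 2 groups do not overlap for any of these genes, as the rule required, and control replicates differ by more than 1.5-fold for Tbc1d31, Sclt1, Thbs2 and Pla2g7.

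Fam177a, which the same rule also picked, is uncertain. It was not listed in either control library (counted as 0) and had 178 and 200 counts with PQ, while its near-copy Fam177a2 went from 252 and 280 counts to 178 and 200. The sum of the pair was 25.5 and 29.1 CPM in control and 37.1 and 38.0 with PQ, a ratio of 1.38. The gene also failed under DESeq2 (adjusted p = 0.1) and a robust quasi-likelihood fit (0.31). Hspa1a, an inducible heat shock protein, shares reads with Hspa1b, and the sum of the pair went from 9.4 and 7.0 to 18.1 and 21.2 CPM, a ratio of 2.39.

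Decreases were ranked with the same limit of 5 CPM, which leaves out rarer genes with larger estimates such as Hlf. That clock output factor stood at 0.910 and 0.935 CPM in control and 0.208 and 0.0950 with PQ, and its call did not hold. Nrm, which encodes nurim, a protein of the inner nuclear membrane, went from 29.1 and 25.3 to 10.9 and 10.8 CPM (log2 fold change -1.32 ± 0.15, adjusted p = 9.6e-06). Neat1, the long noncoding RNA that builds nuclear paraspeckles, went from 331 and 408 to 164 and 151 CPM (-1.23 ± 0.11, adjusted p = 7.9e-07). Mest, an imprinted gene expressed from the paternal copy, went from 739 and 660 to 331 and 320 CPM (-1.10 ± 0.10), and 23.1% of its exonic bases are shared with Copg2 on the other strand. In each case both PQ libraries lay below both control libraries, as the ranking rule required. Nfil3, a repressor that acts on clock genes and in immune cells, fell from 22.03 and 32.0 to 12.5 and 11.4 CPM (-1.18 ± 0.18). Tbc1d31, a centrosomal protein, stood at 43.3 and 77.2 CPM in control and 26.6 and 25.5 with PQ, so that its size rests in part on control replicate 2 (-1.21 ± 0.19). Grcc10, Galnt16, Pkdcc, Ankle1, Skida1, Nmral1, Lrrc4, Sclt1 and Tube1 fell by 1.11 to 1.36 on the log2 scale.

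The lysosome degrades proteins, lipids and sugars with acid hydrolases, at a low pH that the vacuolar proton ATPase maintains. The transcription factors TFEB and TFE3 drive many lysosomal genes by binding promoters at sites built on an E-box with the core CACGTG. Of 81 listed lysosomal hydrolases and membrane proteins 72 were tested, and 26 of them rose with PQ and 2 fell (38.9% of the list, against 17.9% of all genes). Their median log2 fold change was 0.239. Ctsd, which encodes the aspartic protease cathepsin D, was the most significant, with 529 and 477 CPM in control and 851 and 924 with PQ (0.82 ± 0.09, adjusted p = 1.1e-05). Pld3, a lysosomal nuclease, went from 54.8 and 44.9 to 75.0 and 89.2 CPM (0.72 ± 0.12), and the sialidase gene Neu1 from 35.4 and 33.5 to 50.3 and 56.6 CPM (0.64 ± 0.12). The cathepsin gene Ctsh also rose (0.80 ± 0.17). Ctsc, a cathepsin that activates granule proteases of immune cells, went the other way, from 52.0 and 62.2 to 38.8 and 39.6 CPM (-0.54 ± 0.11, adjusted p = 0.0026). For these 5 genes the groups did not overlap. Of the 26 rising members 21 did not hold without at least 1 library, where their adjusted p reached 0.064 to 0.37, and they included Lamp1, Lamp2 and Ctsb. Refits without control replicate 1, control replicate 2, PQ replicate 1 and PQ replicate 2 had 15, 17, 15 and 5 rising members.

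Promoter stretches of 4 genes of the lysosome and its proton pump that rose are shown because they carry the E-box core, which is given in capitals. Each line is 100 bases from the 250 that lie before the annotated start of the gene, read 5′ to 3′ on the strand of the gene, from RefSeq on GRCm38.p6. That of Lamp1, the major lysosomal membrane protein, lies on the plus strand at chr8:13159061-13159160, and that of Ctsd on the minus strand at chr7:142387873-142387972. That of Gla, the alpha-galactosidase lacking in Fabry disease, lies on the minus strand at chrX:134601147-134601246, and that of Atp6v0b, a membrane subunit of the proton ATPase, on the minus strand at chr4:117887330-117887429.
Lamp1: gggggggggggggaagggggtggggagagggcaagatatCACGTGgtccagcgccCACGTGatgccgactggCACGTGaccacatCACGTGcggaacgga
Ctsd: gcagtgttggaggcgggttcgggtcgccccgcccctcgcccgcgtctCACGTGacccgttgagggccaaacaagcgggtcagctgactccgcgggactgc
Gla: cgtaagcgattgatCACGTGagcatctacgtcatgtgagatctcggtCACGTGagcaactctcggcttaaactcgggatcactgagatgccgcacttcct
Atp6v0b: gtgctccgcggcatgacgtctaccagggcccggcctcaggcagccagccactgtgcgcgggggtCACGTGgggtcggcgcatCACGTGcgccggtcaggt
The core was present 4 times in the 250 bases of Lamp1 and 2 times in those of Ctsd, Gla and Atp6v0b. Ctsl, Gaa and Atp6v1a, which also passed as higher, carried it 1 time each and are not shown. Since CACGTG is its own reverse complement, a match on one strand is a match on both. Of 8147 tested genes with exactly 1 promoter window 687 held it (8.43%). Of the 48 lysosomal genes with 1 window 14 held it (29.2%), and of the 18 that rose 5 did (27.8%). The core was thus no more frequent among the rising members than in the whole list. Among proton ATPase subunits with 1 window 2 of 11 held it (18.2%). The longer form TCACGTGA, which contains the core, was found in 1.61% of all windows and in 5 of the 48 lysosomal ones (10.4%). A palindrome that extends this form by 1 base on each side was searched as well. It was in 0.589% of all windows, in 0 of the 48 lysosomal ones and in 0 of the 11 of the proton ATPase. The palindrome is too rare for 0 in lists of this size to show a difference. A match describes these letters only, and binding was not measured. The levels of these genes were 466 and 524 CPM in control and 616 and 650 with PQ for Lamp1 (log2 fold change 0.36 ± 0.09), 28.8 and 29.3 against 41.0 and 38.1 for Gla (0.45 ± 0.12), and 40.7 and 40.9 against 57.4 and 58.6 for Atp6v0b (0.51 ± 0.12). The calls of these 3 did not hold, with an adjusted p of up to 0.13, 0.11 and 0.059 without 1 library.

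Of 30 tested ion pumps and proton ATPase subunits 9 rose and 0 fell, with a median of 0.234, and all 9 belong to the vacuolar proton ATPase or its accessory proteins. They comprise the membrane subunits Atp6v0b, Atp6v0c and Atp6v0e, the catalytic and stalk subunits Atp6v1a, Atp6v1d, Atp6v1e1, Atp6v1f and Atp6v1h, and the accessory gene Atp6ap1, with log2 fold changes of 0.32 to 0.54. None of the 9 held, with an adjusted p of 0.05 to 0.23 in the fit least in favour, and the number that rose was 7, 6, 5 and 2 without control replicate 1, control replicate 2, PQ replicate 1 and PQ replicate 2. Of 47 autophagy genes 4 rose and 0 fell (8.5% called, below the 17.9% of all genes). The 1 that held was Calcoco1, a receptor for selective autophagy, which went from 62.3 and 60.0 to 85.1 and 89.1 CPM (0.51 ± 0.10, adjusted p = 0.0015). Of 44 proteasome subunits 4 rose and 0 fell (9.1%), and Psmd5, an assembly chaperone of the proteasome, held (0.48 ± 0.10).

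**Figure D3:**
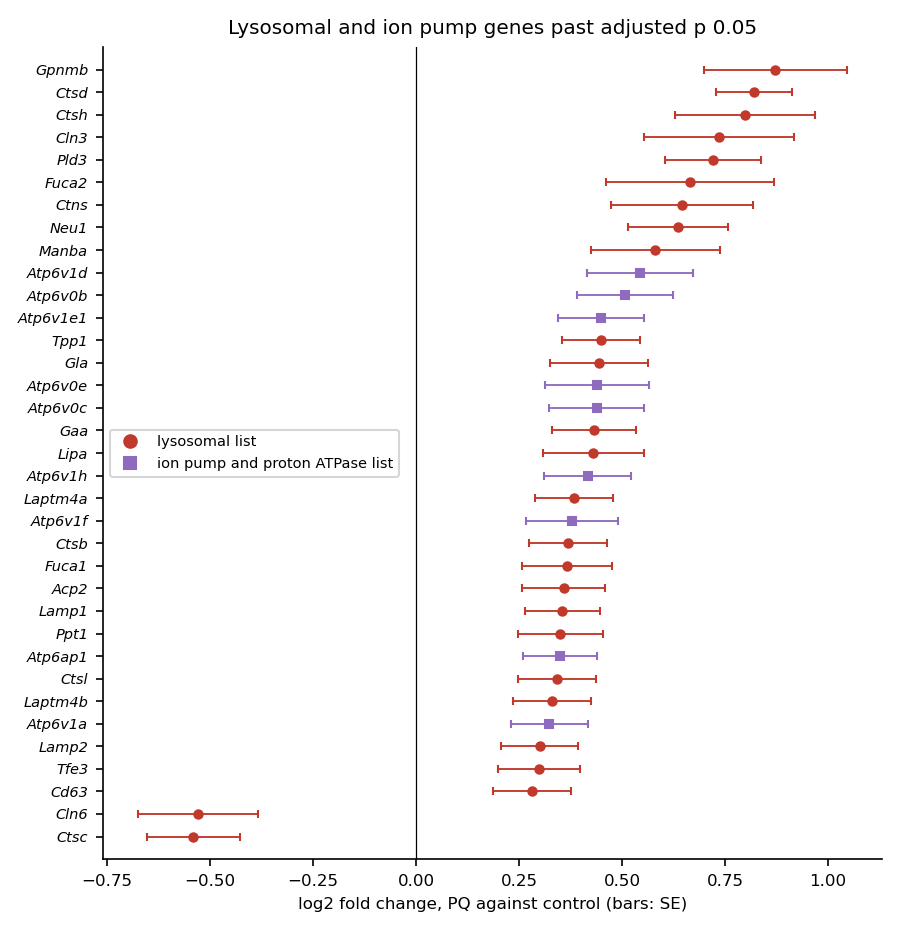
Log2 fold change of PQ against control with its standard error for members of the lysosomal list (circles) and of the ion pump and proton ATPase list (squares) past an adjusted p of 0.05. Increases lie between 0.28 for Cd63 and 0.87 for Gpnmb, and Ctsc and Cln6 are the 2 that fell.

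Transport between nucleus and cytoplasm passes through pores built of nucleoporins, with importins and exportins as carriers and the GTPase RAN setting the direction. Of 54 tested genes of nuclear pores and transport 20 fell and 0 rose with PQ (37.0% called), with a median of -0.238. Nup210, a membrane-spanning nucleoporin, fell most, from 127 and 107 to 53.4 and 63.0 CPM (log2 fold change -1.01 ± 0.11, adjusted p = 9.5e-06). Kpnb1, which encodes importin beta 1, the main carrier of protein import, fell from 698 and 702 to 525 and 497 CPM (-0.45 ± 0.09, adjusted p = 0.0016). Both control libraries exceeded both PQ libraries for each. The other 18, which include the nucleoporins Nup62, Nup85, Nup188 and Nup160, the carriers Ipo5 and Kpna2, and Ran with its exchange factor Rcc1, fell by 0.29 to 0.55 and did not hold, with an adjusted p of 0.051 to 0.43 in the fit least in favour. The number that fell was 17, 14, 9 and 4 without control replicate 1, control replicate 2, PQ replicate 1 and PQ replicate 2. Many of these genes are known to be induced when cells divide, and the level of the proliferation marker Mki67 moved with them, from 1082 and 1055 to 520 and 450 CPM. Its part in these results was not tested.

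Chromatin regulators fell in 19 and rose in 4 of 93 tested members (24.7% called, median -0.116). Ezh2, the methyltransferase of Polycomb complex 2, went from 178 and 200 to 124 and 121 CPM (log2 fold change -0.62 ± 0.10, adjusted p = 0.00022). Dnmt1, which copies DNA methylation to the new strand, went from 522 and 478 to 338 and 344 CPM (-0.55 ± 0.09, adjusted p = 0.00038). Hmgn2, a nucleosome-binding protein, went from 320 and 382 to 226 and 221 CPM (-0.65 ± 0.10). The groups were separate for all 3, and Hmgb3, a high mobility group protein, fell as well (-0.63 ± 0.10). Hmga2, an architectural chromatin protein of fetal stem cells, was one of the 4 that rose and the only one of them that held, from 283 and 297 to 483 and 507 CPM (0.77 ± 0.09, adjusted p = 1.2e-05). Without control replicate 1, control replicate 2, PQ replicate 1 and PQ replicate 2 the number that fell was 18, 13, 12 and 4. Factors of pre-mRNA splicing fell in 10 and rose in 0 of 77 members (13.0% called), and Hnrnpa0 (-0.52 ± 0.09) and the core snRNP gene Snrpd2 (-0.49 ± 0.10) held. Leaving out control replicate 2, PQ replicate 1 or PQ replicate 2 left 7, 4 and 2 splicing genes that fell.

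Ribosomal proteins moved by small amounts. Of 81 cytosolic ribosomal protein genes 19 fell and 0 rose (23.5% called, median -0.209), and 76 of the 81 estimates were below 0. The decreases that passed were of 0.26 to 0.40 on the log2 scale. Rpsa, a protein of the small subunit, was at 1408 and 1409 CPM in control and 1065 and 1073 with PQ (-0.40 ± 0.09, adjusted p = 0.0039), and it was the only one of the 19 that held. The number that fell was 22, 7, 4 and 2 without control replicate 1, control replicate 2, PQ replicate 1 and PQ replicate 2. Under the other settings the number ran from 5 with limma on log2(FPKM + 1) to 27 with DESeq2, with 13 when library size was the only scaling and 26 without the filter on low counts. Among 82 genes of ribosome biogenesis 10 fell and 2 rose (14.6% called), of which Tcof1, a nucleolar factor needed to transcribe ribosomal RNA genes, fell (-0.60 ± 0.11), and Polr1e, a subunit of RNA polymerase I, rose from 12.1 and 10.7 to 19.8 and 20.0 CPM (0.80 ± 0.15). Translation factors fell in 7 and rose in 2 of 61 members (14.8% called), and the one decrease that held was of Eif4ebp1, the inhibitor of the cap-binding factor eIF4E, from 133 and 185 to 100 and 99.1 CPM (-0.68 ± 0.13). In refits without control replicate 1, control replicate 2, PQ replicate 1 and PQ replicate 2, 14, 9, 5 and 2 genes of ribosome biogenesis and 8, 3, 4 and 1 translation factors fell. Of 77 mitochondrial ribosomal proteins 3 passed (3.9%), with Mrps6 higher (0.66 ± 0.10) and 2 lower, and their median of -0.03 became 0.001 with library size as the only scaling.

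**Figure D4:**
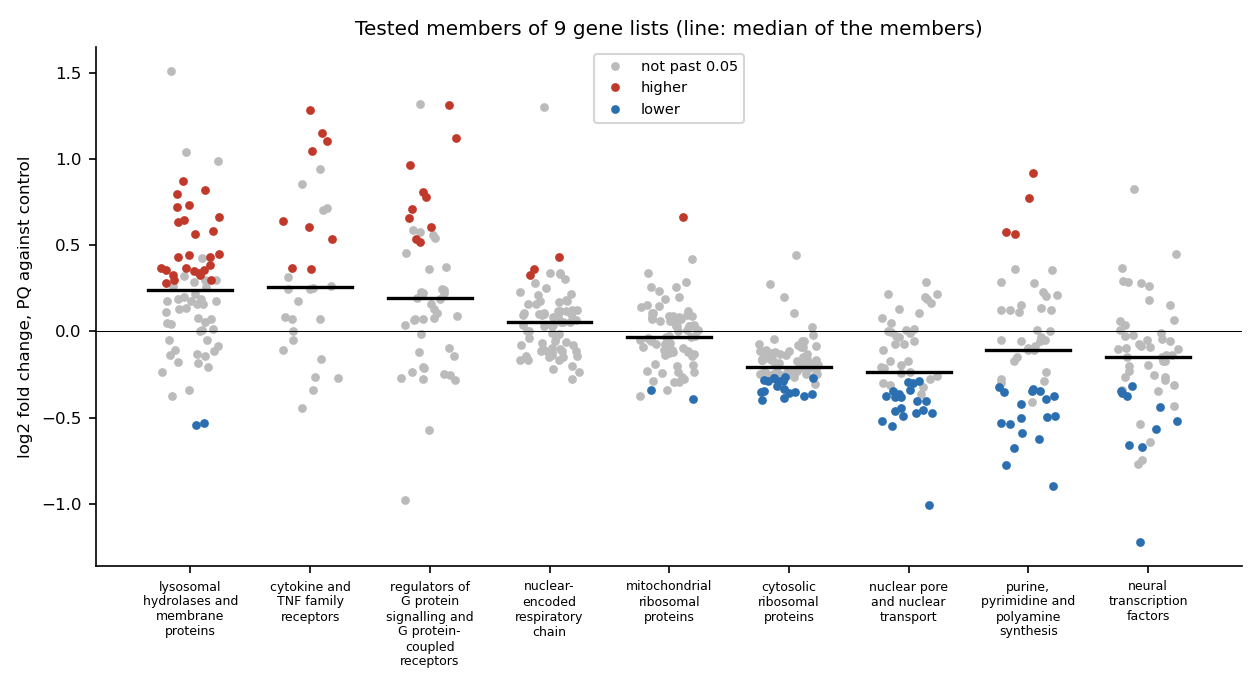
Log2 fold change of PQ against control for each tested member of 9 gene lists, red where higher and blue where lower past an adjusted p of 0.05, with a line at the median of the members. Medians run from 0.259 for cytokine receptors to -0.238 for nuclear transport, and 76 of the 81 cytosolic ribosomal proteins lie below 0.

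Enzymes that make nucleotides and polyamines fell in 18 and rose in 4 of 53 tested members (41.5% called, median -0.107). Prps1, which makes the ribose phosphate donor for purines and pyrimidines, went from 67.7 and 61.9 to 34.6 and 35.2 CPM (log2 fold change -0.90 ± 0.12, adjusted p = 4e-05). Odc1, the ornithine decarboxylase that starts polyamine synthesis, was the most abundant member on the CPM scale and went from 2913 and 3021 to 2135 and 1948 CPM (-0.54 ± 0.09, adjusted p = 0.00044). Srm, the spermidine synthase, fell by 0.68 ± 0.12, and Ahcy, which clears S-adenosylhomocysteine, by 0.59 ± 0.10. The purine enzymes Impdh2 (-0.53 ± 0.10) and Gart (-0.49 ± 0.10) and the pyrimidine enzyme Cad (-0.50 ± 0.11) fell as well. Among the genes that rose, Sat1, which acetylates polyamines for breakdown and export, went from 75.6 and 84.4 to 120 and 117 CPM (0.56 ± 0.10), and Ampd3, an AMP deaminase, from 67.5 and 72.6 to 121 and 144 CPM (0.92 ± 0.10, adjusted p = 1.2e-05). Adssl1, an adenylosuccinate synthase isoform, rose by 0.77 ± 0.15. For each gene given here with its levels, control and PQ libraries did not overlap. Without control replicate 1, control replicate 2, PQ replicate 1 and PQ replicate 2, 13, 14, 9 and 8 members fell.

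Genes of the extracellular matrix moved in both directions. Of 35 laminins and matrix glycoproteins 8 rose and 7 fell (42.9% called, median 0.072). Spp1, which encodes osteopontin, a secreted ligand of integrins and CD44, was the most significant, with 575 and 591 CPM in control and 1227 and 1143 with PQ (log2 fold change 1.02 ± 0.09, adjusted p = 7.3e-07). Vcan, the proteoglycan versican, rose from 216 and 233 to 387 and 414 CPM (0.84 ± 0.09, adjusted p = 8.6e-06), and Ecm1 from 25.1 and 24.4 to 45.9 and 48.2 CPM (0.93 ± 0.14). Emilin2 (1.68 ± 0.31) and Matn2 (0.83 ± 0.15) also rose, and Tnc, the tenascin of the stem cell niche, rose by 0.40 ± 0.09. In the other direction, Lamc1, the gamma 1 chain of most laminins, fell from 599 and 601 to 422 and 421 CPM (-0.51 ± 0.09, adjusted p = 0.00047), as did the fibrillin gene Fbn1 (-0.63 ± 0.13). The number of these glycoproteins that rose was 7 or 8 in each fit without 1 library, and the number that fell dropped to 3 when control replicate 1 was omitted and to 2 when PQ replicate 2 was. Among 18 collagens 7 rose and 2 fell (50.0% called). Col6a1 (0.84 ± 0.13) and Col18a1 (0.71 ± 0.11), which encode chains of collagen VI and of the basement membrane collagen XVIII, rose, and Col3a1, a fibrillar collagen, fell from 29.1 and 28.6 to 15.4 and 15.3 CPM (-0.91 ± 0.14). Omitting control replicate 2, or PQ replicate 2, left 3 rising collagens.

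Matrix proteases and their inhibitors rose in 10 and fell in 5 of 39 tested members (38.5% called). Besides Serpina3n, those that rose and held were Timp1, an inhibitor of metalloproteinases, from 54.3 and 50.3 to 85.3 and 87.8 CPM (log2 fold change 0.73 ± 0.12), Timp3 (0.44 ± 0.10), and the aggrecanase-type proteases Adamts1, from 71.6 and 66.1 to 118 and 110 CPM (0.72 ± 0.10, adjusted p = 8.8e-05), and Adamts4 (0.66 ± 0.11). None of the 5 that fell held, and without PQ replicate 2 0 fell and 6 rose. Integrins rose in 2 and fell in 3 of 16 (31.2% called), and Itga4, the alpha 4 chain, was the one that held (-0.56 ± 0.10). Cadherins passed in 5 of 22 members (22.7%), 3 higher and 2 lower. Cdh19, a cadherin of glial and Schwann cell precursors, rose from 44.8 and 45.1 to 95.01 and 85.8 CPM (1.01 ± 0.11, adjusted p = 5.3e-06), while Cdh4 fell from 168 and 149 to 105 and 106 CPM (-0.58 ± 0.10). Of 49 genes of the actin cytoskeleton and YAP or SRF targets 4 rose and 4 fell (16.3% called): the tropomyosin Tpm1 (0.63 ± 0.10) and the small GTPase Rhob (0.58 ± 0.10) were higher, and the non-muscle myosin Myh10 (-0.67 ± 0.09) and Cdc42ep1 (-0.56 ± 0.10) lower.

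Among the listed ligand genes of the EGF receptor, Areg and Ereg were called, both higher, while Hbegf, Tgfa and Btc were not. Areg, which encodes amphiregulin, went from 41.2 and 52.0 to 119 and 102 CPM (log2 fold change 1.24 ± 0.12, adjusted p = 2e-06), and Ereg, which encodes epiregulin, from 28.0 and 32.3 to 54.5 and 51.4 CPM (0.81 ± 0.12, adjusted p = 0.00014). Both PQ libraries lay above both control libraries for each ligand. Of 46 genes of EGF and FGF signalling and its feedback 11 rose and 2 fell (28.3% called, median 0.126). Errfi1, a feedback inhibitor of the EGF receptor (0.51 ± 0.10), and Phlda1 (0.46 ± 0.11) rose, as did the AP-1 gene Fosl1 (0.91 ± 0.11). Of the exonic bases of Fosl1 57.2% overlap Ccdc85b on the other strand, whose log2 fold change was 0.58. The receptor gene Fgfr3 fell from 63.7 and 53.7 to 28.3 and 29.8 CPM (-1.02 ± 0.12, adjusted p = 1.3e-05), and the immediate early gene Egr1 from 93.1 and 99.8 to 63.6 and 64.3 CPM (-0.59 ± 0.10). The count of rising members dropped to 5 when PQ replicate 2 was omitted.

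Receptors of cytokines and of the TNF family rose in 9 and fell in 0 of 30 tested members (30.0% called, median 0.259), with 7 to 10 higher in each fit without 1 library. Il4ra and Il13ra1, whose products form the shared receptor of interleukins 4 and 13, both rose. Il4ra went from 20.0 and 16.4 to 39.9 and 41.3 CPM (log2 fold change 1.15 ± 0.14, adjusted p = 1.9e-05). Il13ra1 went from 11.7 and 12.2 to 32.2 and 26.2 CPM (1.29 ± 0.16, adjusted p = 2.2e-05). The groups did not overlap in either. Cntfr, the receptor of ciliary neurotrophic factor, rose from 7.58 and 6.44 to 14.2 and 16.1 CPM (1.11 ± 0.18), the chemokine receptor Cxcr4 by 0.64 ± 0.12 and the interferon gamma receptor chain Ifngr2 by 0.54 ± 0.11. The decoy receptor Tnfrsf23 shares sequence with Tnfrsf22, and the sum of the pair was 56.1 and 38.9 CPM in control and 87.2 and 79.9 with PQ, a ratio of 1.76. Secreted growth factors and neuropeptides rose in 9 and fell in 1 of 32 (31.2% called, median 0.283), with 5 to 7 higher in each fit without 1 library. Il33, an alarmin cytokine of the nucleus, went from 172 and 184 to 303 and 277 CPM (0.71 ± 0.09, adjusted p = 5.1e-05), and the macrophage growth factor Csf1 from 70.7 and 76.9 to 102 and 147 CPM (0.75 ± 0.14), with PQ replicate 2 the highest. Angptl2 rose from 371 and 328 to 540 and 541 CPM (0.63 ± 0.10).

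Regulators of G protein signalling and G protein-coupled receptors rose in 10 and fell in 0 of 48 members (20.8% called, median 0.193), and 6 to 9 rose in each fit without 1 library. Rgs8 and Rgs16, which speed up GTP hydrolysis by G alpha subunits, showed the firmest changes. Rgs8 went from 45.8 and 41.9 to 94.2 and 97.0 CPM (log2 fold change 1.13 ± 0.11, adjusted p = 2e-06), and Rgs16 from 211 and 173 to 353 and 397 CPM (0.97 ± 0.11, adjusted p = 8.6e-06). Rgs4 (0.71 ± 0.13), the adhesion receptor Adgre5 (0.81 ± 0.14), the sphingosine-1-phosphate receptor S1pr1 (0.66 ± 0.13) and the orphan receptor Gprc5b (0.54 ± 0.09) rose too. Gprc5b shares 13.1% of its exonic bases with Iqck on the other strand, whose log2 fold change was 0.48. In the BMP and TGF-beta list 9 rose and 3 fell of 42 (28.6% called), and 5 rose in each fit without 1 library except that without control replicate 1, where 7 did. Besides Inhba, its antagonist Fst, which encodes follistatin (1.11 ± 0.23), the ligand Gdf11 (0.80 ± 0.13) and the coreceptor Tgfbr3 (0.79 ± 0.14) rose, and Ltbp4, which stores latent TGF-beta in the matrix, fell (-0.62 ± 0.12). Of 40 Wnt pathway genes 4 rose and 7 fell (27.5% called). Those that held were the stem cell receptor gene Lgr5, from 17.2 and 17.4 to 8.12 and 10.6 CPM (-0.88 ± 0.18), and the frizzled receptor Fzd9 (-0.90 ± 0.20). Among 18 insulin and IGF genes 4 rose and 2 fell (33.3% called), with Igfbp5 (0.51 ± 0.10), a binding protein of IGFs, and Igf2r (0.48 ± 0.09), which carries lysosomal enzymes as well as IGF2, higher.

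Transcription factors of neural development fell in 10 and rose in 0 of 56 tested members (17.9% called, all in 1 direction, against 8.8% lower among all genes), with a median of -0.147. Nr2e1, the nuclear receptor that maintains adult neural stem cells, went from 33.5 and 34.1 to 22.3 and 20.2 CPM (log2 fold change -0.67 ± 0.13, adjusted p = 0.0013). Sox12, a SOX factor of the SoxC group, went from 106 and 104 to 70.5 and 71.5 CPM (-0.57 ± 0.10, adjusted p = 0.00051). The 2 control libraries exceeded the 2 PQ libraries for both. Nkx2-2, Sox3, Pou3f2, Sox2, Nfia, Nfib and Lhx2 passed with all libraries and did not hold, with an adjusted p of 0.096 to 0.3 in the fit least in favour. The number that fell was 8, 8, 5 and 4 without control replicate 1, control replicate 2, PQ replicate 1 and PQ replicate 2.

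**Figure D5:**
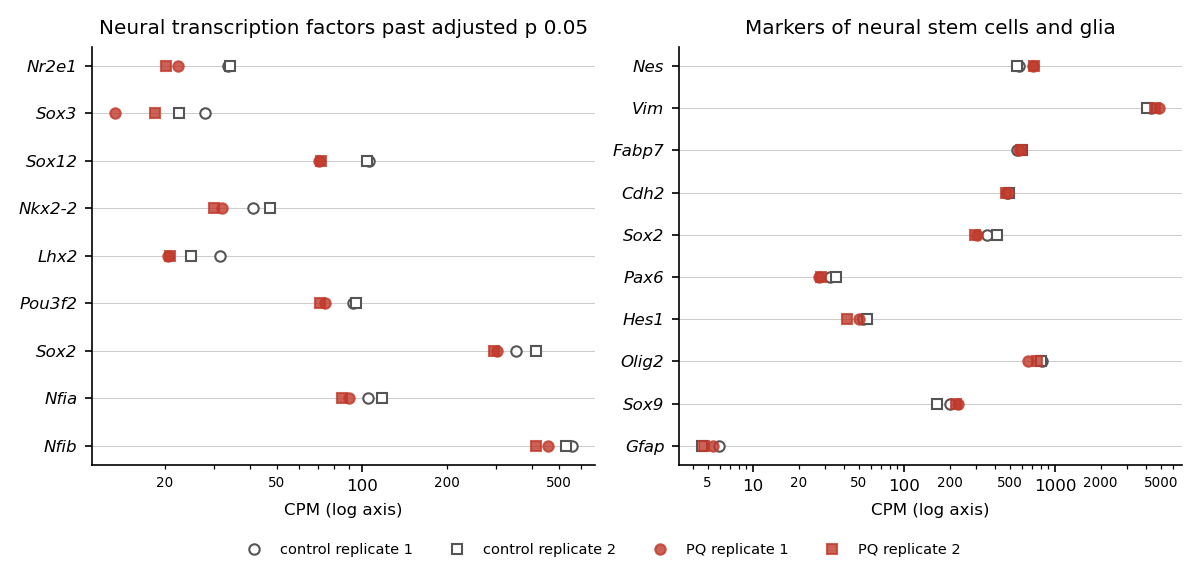
CPM in each library (log axis) for 9 neural transcription factors past an adjusted p of 0.05 (left) and for 10 markers of neural stem cells and glia (right); open symbols are control and filled symbols PQ. Both PQ libraries lie below both control libraries for each of the 9 factors, and Fabp7, Cdh2 and Gfap overlap between them.

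Of 17 tested markers of neural stem cells and radial glia 5 fell and 2 rose (41.2% called, median -0.245). Slc1a3, the glial glutamate transporter, went from 396 and 460 to 315 and 299 CPM (log2 fold change -0.48 ± 0.09). Vim, Fabp7 and Cdh2 did not pass, with log2 fold changes of 0.18 ± 0.09, 0.01 ± 0.09 and -0.03 ± 0.09. The summed level of the 20 listed markers was 8010 to 8124 CPM in control and 8675 to 8838 with PQ. Sums over marker lists are shares of the library total without the TMM adjustment. Vim was the member with the most counts, at 42604 and 39060 expected counts in control and 46811 and 48339 with PQ. Astrocyte markers rose in 3 and fell in 3 of 18. Apoe, the main lipid carrier of the brain, rose from 12.9 and 16.3 to 29.0 and 42.6 CPM (1.30 ± 0.17), whereas the bicarbonate transporter Slc4a4 fell from 39.9 and 35.2 to 20.7 and 21.5 CPM (-0.83 ± 0.12). Neuronal markers rose in 5 and fell in 1 of 15, with Celf4, an RNA-binding protein of neurons, the one that held (0.77 ± 0.14). Oligodendrocyte lineage markers rose in 3 and fell in 1 of 13, and Lhfpl3 held (0.76 ± 0.15). Lhfpl3 shares 17.6% of its exonic bases with A930003O13Rik on the other strand, whose log2 fold change was 0.49. Rbfox3, Neurog2, Slc17a6 and Slc32a1 of the neuronal list and Sox10, Gpr17, Mag and Mog of the oligodendrocyte list were at 0 in all 4 libraries. Other members were well expressed. Map2 stood at 34.2 and 35.6 FPKM in control and 34.05 and 32.6 with PQ, and Olig2 at 328 and 321 against 267 and 311. The neuronal list summed to 410 to 412 CPM in control and 492 to 496 with PQ, and the oligodendrocyte list to 1851 to 2084 and 1893 to 2132. In bulk cultures fewer cells of a type and less RNA per cell cannot be told apart.

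Markers of cells from outside the neural lineage were low. The 20 markers of microglia and blood cells summed to 60.0 to 61.8 CPM in control and 80.6 to 80.8 with PQ. Of that list, Tmem119, Tyrobp and C1qc were at 0 and Csf1r, Ptprc and Aif1 had at most 3 expected counts in a library. The 14 endothelial markers summed to 81.6 to 87.1 in control and 110 to 124 with PQ, of which Flt1 made up nearly all (85.4 and 80.8 in control, 121 and 106 CPM with PQ; adjusted p = 0.0093, and 0.12 without PQ replicate 1), while Cldn5 and Erg were at 0 and Cdh5 and Kdr had at most 2 counts. Fibroblast and pericyte markers summed to 73.8 to 81.2 in control and 57.4 to 63.1 with PQ, a sum carried mostly by Col3a1 and Fbln1, which fell. The median over the 8 tested members was 0.506, and Acta2 and Dcn passed as higher at levels below 5 CPM; of these 4 genes Col3a1 alone held. The 19 ependymal and choroid plexus markers summed to 23.6 to 28.3 in control and 24.8 to 28.4 with PQ, and Ttr and Otx2 were at 0.

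Enzymes of sterol synthesis rose in 8 and fell in 0 of 26 tested members (30.8% called, median 0.198). Hsd17b7 and Nsdhl, which act late in the pathway, held: Hsd17b7 went from 68.7 and 57.7 to 106 and 96.6 CPM (log2 fold change 0.68 ± 0.11, adjusted p = 0.00028), and Nsdhl from 194 and 176 to 255 and 246 CPM (0.44 ± 0.09). Refits without control replicate 1, control replicate 2, PQ replicate 1 and PQ replicate 2 had 13, 5, 2 and 5 rising members. In the list of lipid efflux and lipoprotein genes 4 rose and 0 fell of 26 (15.4% called), of which Apoe, given above, held, and 7, 3, 5 and 1 rose without control replicate 1, control replicate 2, PQ replicate 1 and PQ replicate 2. Among 23 ATP-binding cassette transporters 1 rose and 1 fell (8.7% called). The one that rose was Abca1, which loads apolipoproteins with cholesterol and went from 29.5 and 26.1 to 51.3 and 60.3 CPM (1.01 ± 0.12, adjusted p = 1.8e-05). Of 44 genes of fatty acid synthesis and storage 3 rose and 3 fell (13.6% called). Plin2, the coat protein of lipid droplets, was the one that held and rose from 95.8 and 92.5 to 144 and 150 CPM (0.65 ± 0.10). Control and PQ libraries did not overlap for these genes.

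Enzymes of aldehyde, carbonyl and xenobiotic metabolism rose in 14 and fell in 2 of 54 tested members (29.6% called, median 0.13), and 4 rose without PQ replicate 2. With Aldh1a3, those that held were the glutathione transferase Gstt1, from 30.1 and 24.7 to 46.2 and 44.8 CPM (log2 fold change 0.73 ± 0.13), the aryl hydrocarbon receptor gene Ahr, from 4.95 and 3.43 to 10.5 and 9.50 CPM (1.25 ± 0.23), and the epoxygenase Cyp2j6 (0.68 ± 0.13). Cyp2j6 is close in sequence to Cyp2j9, and the sum of the pair was 1.62 times that of control. Of 19 genes of arachidonic acid metabolism and annexins 4 rose and 0 fell (21.1% called), and Anxa4 (0.79 ± 0.15) and Anxa7 (0.53 ± 0.10), proteins that bind membranes with calcium, held beside Pla2g7.

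Mitochondrial and energy metabolism stayed below the background in most lists. Of 75 nuclear genes of the respiratory chain 3 rose and 0 fell (4.0% called), and none of the 3 held. In the citric acid cycle 2 rose and 3 fell of 40 (12.5% called): Suclg2, a subunit of succinyl-CoA ligase, fell from 59.1 and 60.3 to 40.0 and 40.0 CPM (log2 fold change -0.58 ± 0.10), and Ogdhl, a brain form of oxoglutarate dehydrogenase, rose (0.69 ± 0.13). Fatty acid oxidation and peroxisomes had 4 higher and 4 lower of 60 (13.3% called), with Cpt1c higher (0.66 ± 0.12) and Echs1 lower (-0.63 ± 0.10). Glycolysis had 1 higher and 3 lower of 35 (11.4% called), and the lactate dehydrogenase subunit gene Ldhb was the one that rose (0.55 ± 0.10), from 73.0 and 71.4 to 98.6 and 113 CPM. Sirt1, a deacetylase that uses NAD, did not pass (22.6 and 27.8 CPM in control, 24.5 and 20.7 with PQ; -0.16 ± 0.15).

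Chaperones of the cytosol rose in 9 and fell in 4 of 48 tested members (27.1% called). Hspb8, a small heat shock protein that feeds selective autophagy, went from 95.9 and 83.5 to 167 and 182 CPM (log2 fold change 0.96 ± 0.10, adjusted p = 5.7e-06). The J-domain cochaperone Dnajb4 (0.59 ± 0.10), Hsph1 (0.51 ± 0.10) and Cryab (0.78 ± 0.15) rose as well, while none of the 4 that fell held. The number that rose was 5 without PQ replicate 2. Endoplasmic reticulum genes had 5 higher and 3 lower of 51 (15.7% called), and Calr3, a paralog of calreticulin, rose from 9.90 and 8.52 to 21.3 and 22.8 CPM (1.26 ± 0.16).

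Among 69 Kruppel-like, nuclear receptor and other stress-responsive factors 10 rose and 3 fell (18.8% called). Epas1, which encodes the hypoxia-inducible factor HIF-2 alpha, rose from 15.2 and 12.7 to 33.8 and 36.9 CPM (log2 fold change 1.34 ± 0.15, adjusted p = 1.2e-05). Tsc22d3, which encodes GILZ, a target of glucocorticoids, fell from 17.4 and 21.2 to 11.3 and 10.5 CPM (-0.82 ± 0.16). The other 9 that rose did not hold, and 2 rose without PQ replicate 2. Genes of glutamate signalling changed in both directions: the NMDA receptor subunit Grin1 (1.22 ± 0.22) and the AMPA receptor subunit Gria3 (0.54 ± 0.10) rose, and the metabotropic receptor Grm5 fell from 195 and 196 to 112 and 101 CPM (-0.88 ± 0.10, adjusted p = 7.9e-06), with 6 higher and 4 lower of 52 in their list (19.2% called). Grin1 shares 13.5% of its exonic bases with Grin1os on the other strand, whose log2 fold change was 0.73. Of 63 ion channel genes 4 rose and 2 fell (9.5% called), among them the accessory subunit gene Cacng5, which was higher (0.85 ± 0.10). In the lists not yet described, 4 of 23 circadian clock genes fell and 1 rose (21.7% called), and 3 of 15 Hedgehog pathway genes fell (20.0%). Of 35 semaphorins, plexins, slits and netrins 4 rose and 2 fell (17.1%), and 1 of 14 ephrins and Eph receptors rose (7.1%). Of 59 genes of mitochondrial import, dynamics and stress 3 rose and 3 fell (10.2%). The share over all genes tested was 17.9%. Among the called members of these lists Nfil3, given above, and Flrt3, which rose, held, and the others did not.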

How the data were processed

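RNA of 6 mouse libraries (2 control, 2 PQ, 2 NAC) was sequenced on a BGISEQ-500 after rRNA depletion or oligo dT selection, per the labels' protocols, which do not say which was used. Tools listed in the submitters' processing notes are Bowtie2 2.2.5, HISAT2 2.0.4 and RSEM, with the build mm10 and no roles. Per the file headers, the authors deposited FPKM values and expected counts for each gene. Tables list only genes above 0, so absent genes were set to 0. Gene names were found for 17199 of 17254 identifiers. Those without a name (55) took 0.072% to 0.079% of counts.

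Rounded expected counts entered edgeR 4.0.16 (R 4.3.3), with these settings (filterByExpr with a minimum count of 10 and a minimum total of 15, TMM, quasi-likelihood F test, 1 mean per group over 6 libraries, 3 residual degrees of freedom, contrast PQ minus control, Benjamini-Hochberg over 12813 genes). Every adjusted p is edgeR's unless another tool is named. Standard errors were obtained from the log2 fold change and the square root of F. The code was tested on simulated data. FPKM served for levels of different genes and for limma 3.58.1 alternatives. DESeq2 1.42.0 was another alternative. Figures used Python 3.11.15 and matplotlib.

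The gene lists and the naming rule were written with earlier results of these data known, so lists are described by counts and medians and not tested. The rule took, by size of change, 15 genes that rose and 15 that fell (adjusted p under 0.05, mean of at least 5 CPM, no overlap of groups, an established symbol, outside the 5 programmes), and in each list up to 3 members per direction with the smallest p, or all where 5 or fewer passed. Of these 271 genes the text gives mainly the 128 that held without any 1 library, a choice made after their values were seen, as was the naming of other list members. Of 288 genes examined one by one 40 share exonic bases with another tested gene, and strand use in counting is not given in the sources used here. Some genes that the rule picked, or that belong to a list, are not reported by name here and are left out of plots that name genes, while counts over lists include them.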

Additional observations from a re-analysis of the deposited data

How the results depend on the processing

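The number of genes called was 2289, and 829 to 2181 when 1 library was left out, with 438 to 1094 higher and 391 to 1087 lower; the fewest came without PQ replicate 2. DESeq2 called 745 genes higher, against 1162 with edgeR, and 1578 in all. Fits without NAC libraries gave 2193 calls and limma on log2(FPKM + 1) 1854. Scaling by library size alone gave 1332 higher and 965 lower and moved the median of all genes from -0.002 to 0.029. Of 288 genes examined one by one 275 kept their call under that scaling, 233 under DESeq2, and 240, 220, 202 and 155 without control replicate 1, control replicate 2, PQ replicate 1 and PQ replicate 2, and 0 changed sign under any setting run. Of 108 list counts (54 lists in 2 directions) 75 moved by over 1.5 times without PQ replicate 2 and 53 without PQ replicate 1; the cause was not tested. No paired analysis was possible because the control and PQ libraries share no number in the labels, which are 8 and 11 for control and 9 and 12 for PQ. At 9680436 to 10388731 counts per library, the precision of genes at a few CPM is limited by counting.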

Other observations

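Genes outside every list fixed for the comparison also changed, 767 higher and 683 lower of 10135 tested. That is 14.3% called, against 15.4% of all genes outside the 5 programmes and 17.9% of all genes tested. The values below are of some of those with the smallest p, chosen after their values were seen, and each stayed past an adjusted p of 0.05 in edgeR without any 1 control or PQ library. Sulf1, an enzyme that trims sulfate groups from heparan sulfate chains at the cell surface, went from 39.9 and 35.8 to 80.9 and 89.6 CPM (1.17 ± 0.11, adjusted p = 1.4e-06). Steap4, a metalloreductase, went from 42.4 and 47.9 to 85.8 and 103 CPM (1.06 ± 0.11). The PQ libraries lay above the control libraries for both, which the choice of these genes required, along with a mean of at least 5 CPM. The connexin Gjc3 (0.85 ± 0.10), the sialyltransferase St6gal1 (0.81 ± 0.10), Mctp1 (1.09 ± 0.13) and the secreted olfactomedin Olfm1 (0.75 ± 0.10) rose too.

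Among the decreases, Serpinh1, the collagen chaperone HSP47, went from 51.9 and 57.8 to 29.5 and 31.1 CPM (log2 fold change -0.86 ± 0.12, adjusted p = 7.2e-05), and Lfng, a glycosyltransferase that modifies Notch receptors, from 77.1 and 85.5 to 49.0 and 50.5 CPM (-0.71 ± 0.10, adjusted p = 0.00013). Olfm2 moved opposite to its relative Olfm1, from 89.3 and 110 to 53.3 and 61.0 CPM (-0.80 ± 0.11). Zcwpw1, a reader of histone methylation, fell by 1.10 ± 0.15, Jade1 by 1.00 ± 0.14, the centriolar gene Cntln by 0.89 ± 0.12 and the condensin II subunit Ncaph2 by 0.72 ± 0.09. Ncaph2 and Zcwpw1 share 19.7% and 8.2% of their exonic bases with Sco2 and Pilra on the other strand. The log2 fold changes of Sco2 and Pilra were 0.18 and -0.61.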
